A study of Mus musculus with 20 samples.

Results

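The 8 genes described here encode the INK4 and ARF proteins (Cdkn2a, Cdkn2b, Cdkn2c and Cdkn2d), the KIP inhibitor p27 (Cdkn1b) and the RB family (Rb1, Rbl1 and Rbl2). They were chosen by symbol, and all 8 were found among the 50559 genes of the deposited count tables. RNA was sequenced in 20 libraries. They fall into 4 groups of 5, livers without tumors and the tumors called Aldafermin + MYC, FGF19 + MYC and sgTrp53 + MYC. The mice were wild-type C57Bl6J (C57BL/6J in the study's methods), and the study's methods describe young adult females whose hepatocytes were transfected in vivo by hydrodynamic injection into the tail vein. The plasmids were injected together with a Sleeping Beauty transposase. All tumors carried a MYC plasmid. The first group also received Aldafermin, an engineered analog of the hormone FGF19, the second received human FGF19 itself, and the third received a CRISPR plasmid with a guide RNA against Trp53, the gene of p53. Aldafermin + MYC and FGF19 + MYC tumors therefore had no engineered change in Trp53. The livers are labelled as non treated, whereas a figure legend of the study describes control livers that received an RFP plasmid. Tumors came from different mice, and ages at collection are not given per sample in the sources used here.

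These genes act on 1 pathway. INK4 proteins bind the kinases CDK4 and CDK6 and keep cyclin D from activating them, while p27 binds and restrains the complexes of CDK2 with cyclins E and A. Active kinases phosphorylate the RB family, which otherwise holds E2F transcription factors in check and keeps genes for DNA replication silent. ARF is read from the same gene as the INK4 protein p16 but in another frame, and it stabilises p53 by binding MDM2. High MYC activity is known to induce ARF, and loss of either ARF or p53 is a common event in MYC-driven tumors of the mouse.

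The transcripts of p16 and ARF from Cdkn2a share their second exon, which is why a count per gene cannot separate p16 from ARF. The coding bases on both sides of the first junction are shown, 45 from the first exon in lower case and 45 from the shared second exon in capitals. The sequences are from the GENCODE annotation of GRCm39, minus strand. The first exon of p16 (Cdkn2a-201) lies at chr4:89200223-89200429, that of ARF (Cdkn2a-202) at chr4:89212571-89212890, and the shared exon at chr4:89194882-89195222.
Cdkn2a-201 (p16): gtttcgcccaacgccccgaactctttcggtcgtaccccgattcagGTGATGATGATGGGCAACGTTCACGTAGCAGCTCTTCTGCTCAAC
Cdkn2a-202 (ARF): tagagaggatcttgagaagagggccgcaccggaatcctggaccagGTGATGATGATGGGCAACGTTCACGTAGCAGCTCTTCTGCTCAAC

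The promoters of 7 of the 8 genes, 250 bases before to 50 bases after the start in RefSeq (GRCm38.p6), were matched by symbol, with 9 entries because Cdkn2a and Cdkn2c have an entry for each of their starts. No entry was used for Rb1. On both strands, 4 forms of the E2F binding word were searched (TTTCCCGC, TTTGGCGC, TTTCGCGC and TTTGCCGC), none of which overlaps another in these windows. They were found in 2 of the 9 entries, those of Rbl1 and of the ARF start of Cdkn2a, and in 2.26% of all 32851 promoters of the table. The promoter of the p16 start held none of these letters. The bases around both words are shown because these are the matches among the members, with the word in capitals and on the strand of the gene.
Rbl1, chr2:157204535-157204582, minus strand: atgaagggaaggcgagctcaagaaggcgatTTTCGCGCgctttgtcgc
Cdkn2a (ARF start), chr4:89294681-89294748, minus strand: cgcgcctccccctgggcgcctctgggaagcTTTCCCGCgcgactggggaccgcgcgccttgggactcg
The word begins 18 bases before the start of Rbl1 and 99 bases before the ARF start. A shorter word, TTTGAA, known from cell cycle promoters bound by the DREAM complex of RBL1 and RBL2, stood in the windows of Cdkn2b and Rbl2 and in 17.9% of all promoters. A match of letters is a description and not evidence of binding.

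Levels are given as CPM, a gene's read count per mega-read assigned to genes in its library, after library sizes were scaled by the TMM method. Libraries held from 18004977 to 66354724 such reads. The 5 sgTrp53 + MYC libraries, of 54042455 reads or more, stand in a table of their own. In them 5.34% to 6.82% of the reads were not aligned and 11.1% to 14.6% fell on more than one gene, against 15.3% to 34% and 3.03% to 6.3% in the other libraries. The tumor group and the table therefore cannot be told apart in any comparison with sgTrp53 + MYC tumors. The targeted gene, Trp53, had 18.7, 79.9, 35.4, 51 and 48.8 CPM in sgTrp53 + MYC replicates 1 to 5, below the 90.8 to 176 CPM of the other tumors and around the 28.8 to 36.4 CPM of livers. These counts do not show whether the remaining transcripts carry edits. The 10 hepatocyte markers examined summed to between 189721 and 238645 CPM in livers and to between 4216 and 30970 CPM in tumors, and no marker was absent from a group. The 7 macrophage markers summed to 84.8 to 169 CPM in sgTrp53 + MYC tumors, 152 to 459 CPM in Aldafermin + MYC tumors, 271 to 496 CPM in FGF19 + MYC tumors and 382 to 588 CPM in livers, and the 6 endothelial markers to 51.9 to 178 CPM in tumors and 220 to 357 CPM in livers. Their part in the differences between groups was not tested. In such bulk samples, fewer cells of a type and less RNA per cell cannot be told apart.

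Among the INK4 genes, Cdkn2a was near the limit of detection in livers and was far higher in 1 tumor than in all other libraries. Livers had 0, 4, 9, 1 and 5 counts of Cdkn2a, where 0 counts allow up to 3. Aldafermin + MYC tumors had 36, 22, 80, 22 and 17 counts, or 0.48 to 2.13 CPM, and FGF19 + MYC tumors had 15, 11, 6, 13 and 12 counts, or 0.27 to 0.84 CPM. All 5 Aldafermin + MYC libraries lay above the highest liver (0.40 CPM), as did 3 of the 5 FGF19 + MYC libraries. In sgTrp53 + MYC tumors the counts were 14, 5785, 13, 58 and 6. Replicate 2 thus had 80.9 CPM, 257 times the mean of the other 4 tumors of its group, which was 0.316 ± 0.321 CPM (SD, n = 4), and 37.9 times the highest of the other 19 libraries. Those other 4 sgTrp53 + MYC tumors were not high in Cdkn2a, and 3 of them lay below all Aldafermin + MYC and FGF19 + MYC tumors.

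Cdkn2b, the gene of p15 next to Cdkn2a, stood apart in the same library. It had 7.51 CPM (537 counts) in sgTrp53 + MYC replicate 2 and 0.18 to 0.35 CPM in the other 4 tumors of that group. Livers had 0.20 to 0.65 CPM, FGF19 + MYC tumors 0.29 to 0.84 CPM and Aldafermin + MYC tumors 0.08 to 1.79 CPM, so that these groups overlapped. The highest of the other 19 libraries for both genes was Aldafermin + MYC replicate 3, with 2.13 CPM of Cdkn2a and 1.79 CPM of Cdkn2b. This library also had the highest summed level of the 8 stellate cell and fibroblast markers among Aldafermin + MYC tumors, 2258 CPM against 273 to 802 CPM in the other 4. It was the highest of its group in the cholangiocyte markers too (68.6 CPM against 1.81 to 34.7 CPM). The same held for the macrophage (459 against 152 to 361 CPM), endothelial (173 against 55.6 to 163 CPM) and lymphocyte and leukocyte markers (32.8 against 11.7 to 30 CPM). Replicate 4 was the next highest in each of these sums and had 0.85 CPM of Cdkn2a and 0.08 CPM of Cdkn2b. The part of these cells in the result was not tested.

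**Figure D1:**
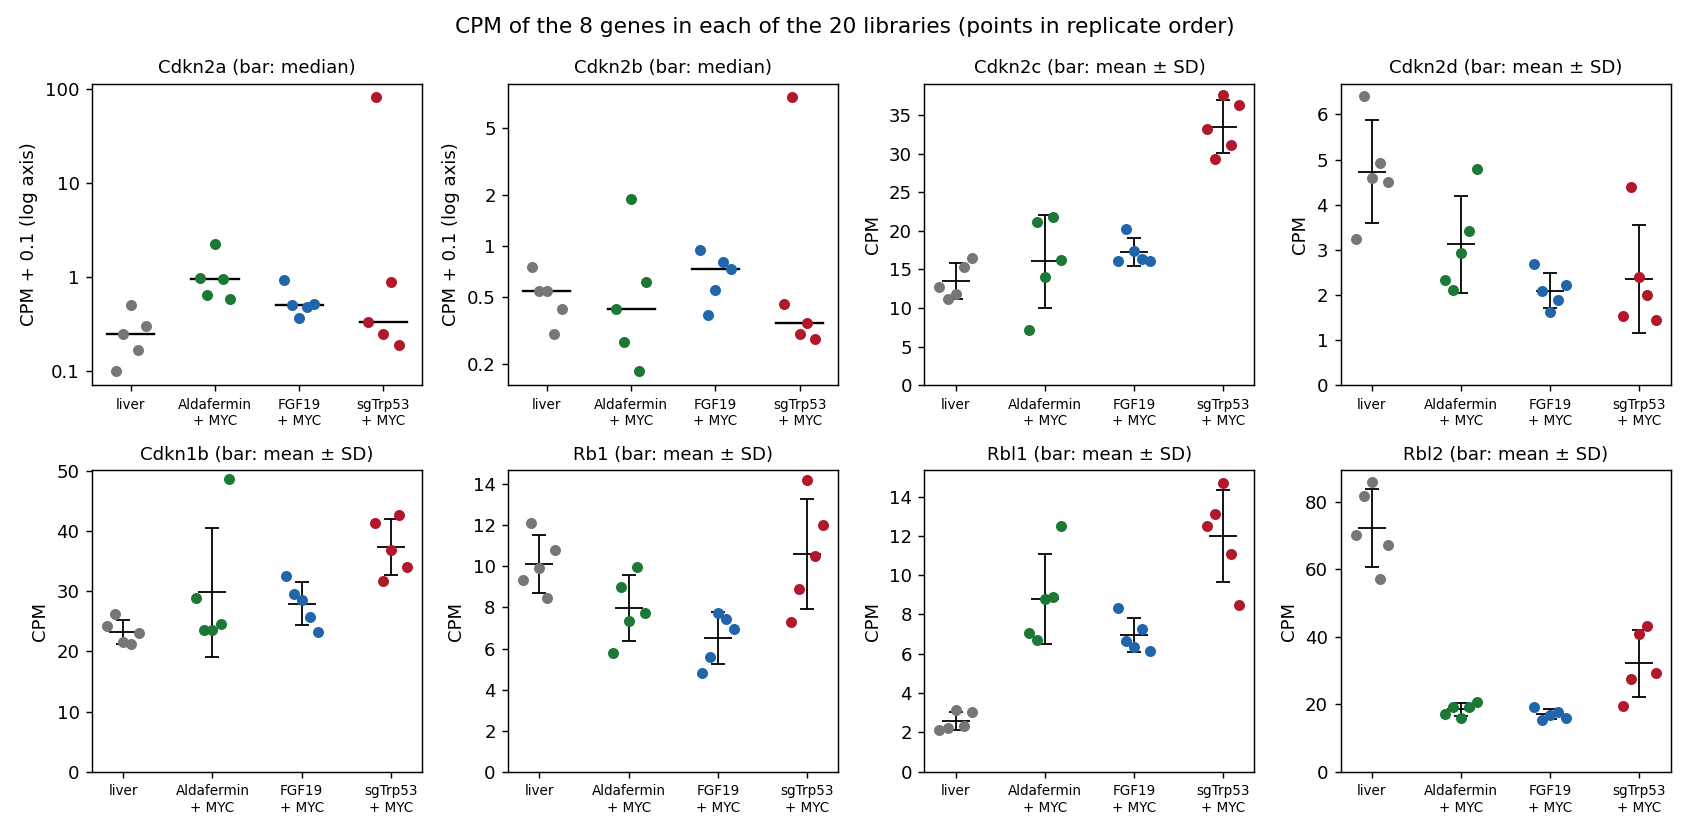
CPM of the 8 genes in each library, with points in replicate order within each group. Bars show the mean ± SD, or the median for Cdkn2a and Cdkn2b, which are drawn as CPM + 0.1 on a log axis. One sgTrp53 + MYC tumor (replicate 2) stands far above the rest in Cdkn2a (80.9 CPM) and Cdkn2b (7.51 CPM), Rbl2 is highest in livers and Rbl1 lowest there, and Cdkn2c is highest in all 5 sgTrp53 + MYC tumors.

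Both genes missed the filter of 1 CPM in 5 libraries, so 6 of the 8 genes were tested. In a fit without the filter, edgeR's quasi-likelihood test with adjustment over all its genes gave Cdkn2a a log2 difference of 6.79 (SE 1.53, adjusted p = 0.000842) between sgTrp53 + MYC tumors and livers. Without replicate 2 that difference was 1.15 (SE 0.71, adjusted p = 0.217), so this call rested on 1 library. Against the mean of the other tumors the value went from 4.73 (adjusted p = 0.00314) to -0.94 (adjusted p = 0.343) when replicate 2 was left out. The Aldafermin + MYC value against livers was 2.60 (SE 1.41, adjusted p = 0.155) with all libraries and 2.62 (SE 0.69, adjusted p = 0.00328) without sgTrp53 + MYC replicate 2, which changed the spread and hardly the difference. The FGF19 + MYC value was 1.53 (adjusted p = 0.439), or 1.56 (adjusted p = 0.0827) without that library. For Cdkn2b no comparison passed in either fit, with an adjusted p of 0.0525 between sgTrp53 + MYC tumors and livers, where the log2 difference went from 2.32 to -0.46 without replicate 2.

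The neighbourhood of Cdkn2a was examined for the same library. The share of all genes that were highest in this library is not given here, so the counts below only describe the neighbourhood. Of the 55 genes of the tables with a part within 1 Mb of Cdkn2a, 12 had more than 3 counts in sgTrp53 + MYC replicate 2, and 5 of these were higher there than in all other 19 libraries. Beside Cdkn2a and Cdkn2b these were Wincr1, the gene of a long non-coding RNA, and the predicted genes Gm12610 and Gm49890, named after their values were seen. Gm12610 starts 0.159 kb from the ARF start on the other strand and had 20 counts, against 0 to 2 in each other library. Wincr1, at -248 kb from the start of Cdkn2a, had 443 counts (6.2 CPM), against 0 in the other 4 sgTrp53 + MYC tumors and at most 7 elsewhere. Gm49890, at -356 kb, had 208 counts against at most 120. Mtap, a gene of methionine salvage at -158 kb, whereas Cdkn2b lies on the other side at 16 kb, had 180 CPM in replicate 2 and 138 to 196 CPM in the other 4 tumors of the group. Mtap was thus within the range of its group.

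**Figure D2:**
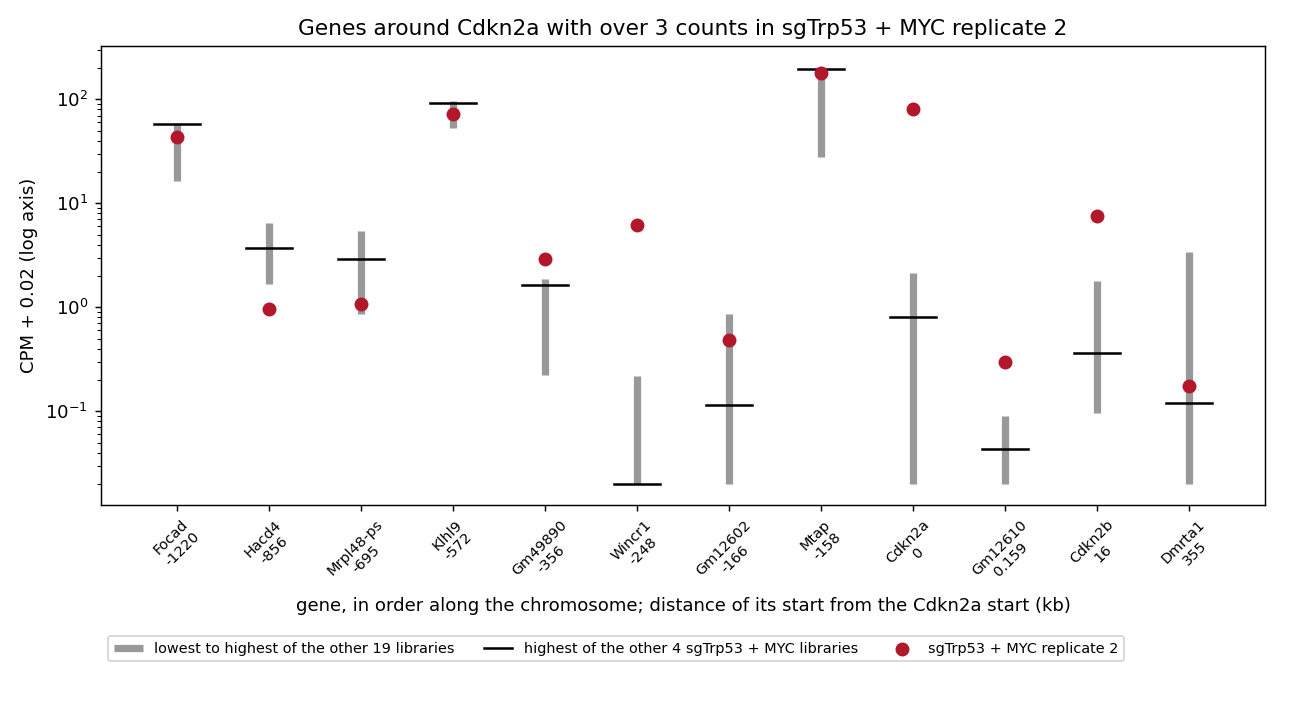
CPM + 0.02 on a log axis for the 12 genes around Cdkn2a with over 3 counts in sgTrp53 + MYC replicate 2, in order along the chromosome with the distance of each start from that of Cdkn2a. Red points are that library, gray lines run from the lowest to the highest of the other 19, and black bars mark the highest of the other 4 sgTrp53 + MYC tumors. Cdkn2a, Cdkn2b, Gm12610, Wincr1 and Gm49890 lie above all other libraries, while Mtap does not.

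Other values of the same library moved with Cdkn2a. Of the 6 cholangiocyte markers listed, 5 were higher in sgTrp53 + MYC replicate 2 than in all other 19 libraries, and their sum was 779 CPM against 3.85 to 41.3 CPM in the other 4 tumors of the group and 44.3 to 125 CPM in livers. Krt19, a keratin of bile duct cells, had 191 CPM there against at most 2.87 CPM elsewhere, and Krt7 had 80.9 CPM against at most 2.22 CPM. Cftr, the chloride channel of the same cells, was at 0.07 CPM in replicate 2. The hepatocyte markers summed to 5149 CPM, within the 4216 to 11737 CPM of the other 4 tumors, and the proliferation marker Mki67 was 154 CPM against 164 ± 55.3 CPM (SD, n = 4). Trp53 was 2.08 times the mean of those 4 tumors. The share of all genes highest in this library is not given for the marker count either. The part of these values in the Cdkn2a result was not tested. The library did not stand apart in all 8 genes: Cdkn1b, Rb1, Rbl1 and Rbl2 had 0.82, 0.812, 1.12 and 0.825 times the mean of the other 4 tumors, while Cdkn2d had 2.39 times that mean.

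Cdkn2c, the gene of p18, was the INK4 gene with the highest level per length in each group, apart from sgTrp53 + MYC replicate 2 where Cdkn2a exceeded it. It had 33.2, 29.4, 37.6, 31.2 and 36.3 CPM in sgTrp53 + MYC tumors. Livers had 12.7, 11.2, 11.8, 15.3 and 16.5 CPM, FGF19 + MYC tumors 16.1, 20.3, 17.4, 16.3 and 16.1 CPM, and Aldafermin + MYC tumors 7.09, 21.2, 14, 21.8 and 16.2 CPM. All sgTrp53 + MYC tumors lay above all 15 other libraries, which overlapped among themselves. On the log2 scale Cdkn2c was higher by 1.31 (SE 0.22, adjusted p = 2.7e-05) in sgTrp53 + MYC tumors than in livers and by 1.01 (SE 0.18, adjusted p = 0.00064) than in the mean of the other tumors, and both calls held in all 31 alternatives. The difference between livers and either of the other tumor groups did not pass the test (0.25, SE 0.22, adjusted p = 0.311, and 0.35, SE 0.22, adjusted p = 0.154). Without Aldafermin + MYC replicate 1, the lowest library, both passed (0.44, adjusted p = 0.0184, and 0.35, adjusted p = 0.0414). Both also passed with library totals alone (1.10, adjusted p = 0.000272, and 1.20, adjusted p = 0.000122), and the FGF19 + MYC value passed with offsets for GC content and length (0.50, adjusted p = 0.0444).

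Cdkn2d, the gene of p19INK4d and no relative of p19ARF in sequence, went the other way. It had 3.23, 6.42, 4.59, 4.92 and 4.5 CPM in livers, 2.68, 2.08, 1.62, 1.88 and 2.21 CPM in FGF19 + MYC tumors, and 1.53, 4.39, 2.39, 1.99 and 1.44 CPM in sgTrp53 + MYC tumors. Aldafermin + MYC tumors had 2.33, 2.11, 2.93, 3.42 and 4.8 CPM. All FGF19 + MYC tumors and 4 of 5 sgTrp53 + MYC tumors were below the lowest liver. The level fell by 1.18 on the log2 scale in FGF19 + MYC tumors (SE 0.31, adjusted p = 0.00257) and by 1.01 in sgTrp53 + MYC tumors (SE 0.31, adjusted p = 0.00699), while the value of -0.60 in Aldafermin + MYC tumors (SE 0.31, adjusted p = 0.0882) did not pass. The last value passed without Aldafermin + MYC replicate 5 (-0.75, adjusted p = 0.0428) and, at -0.60, without sgTrp53 + MYC replicate 2 (adjusted p = 0.0453). Both tumor calls were lost when libraries were scaled by their totals alone (-0.34 and -0.11), and that in sgTrp53 + MYC tumors also without the filter on low counts (-0.73, adjusted p = 0.0809). The Aldafermin + MYC value passed with DESeq2 (-0.68, adjusted p = 0.043) and with offsets for GC content and length (-0.65, adjusted p = 0.0439).

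Cdkn1b, the gene of p27, was higher in sgTrp53 + MYC tumors than in livers. Livers had 21.3 to 26.2 CPM with a mean of 23.3 ± 2 (SD, n = 5), FGF19 + MYC tumors 27.9 ± 3.53 CPM (SD, n = 5) and sgTrp53 + MYC tumors 37.3 ± 4.64 CPM (SD, n = 5). Aldafermin + MYC tumors had 23.6 to 28.8 CPM in replicates 1 to 4 and 48.6 CPM in replicate 5, the highest of all libraries. All sgTrp53 + MYC tumors, at 31.7 to 42.6 CPM, lay above all livers, and the rise of 0.68 on the log2 scale passed the test (SE 0.17, adjusted p = 0.00189) and held in all 31 alternatives (0.47 to 1.56). The values in Aldafermin + MYC tumors (0.36, SE 0.17, adjusted p = 0.0753) and FGF19 + MYC tumors (0.26, SE 0.17, adjusted p = 0.192) did not pass against livers, nor did sgTrp53 + MYC against the other tumors (0.37, SE 0.15, adjusted p = 0.0755). Without Aldafermin + MYC replicate 5, sgTrp53 + MYC tumors were higher than the others by 0.54 (adjusted p = 0.0018), and FGF19 + MYC tumors passed against livers at 0.35 (adjusted p = 0.0186). Aldafermin + MYC tumors passed against livers without replicate 2 (0.43, adjusted p = 0.0416), 3 (0.43, adjusted p = 0.0399) or 4 (0.42, adjusted p = 0.0493) of that group, and at 0.54 without the filter on low counts (adjusted p = 0.027). With library totals alone, Cdkn1b passed against livers in Aldafermin + MYC (1.18, adjusted p = 9.64e-07) and FGF19 + MYC tumors (1.10, adjusted p = 2.61e-06), and in sgTrp53 + MYC against the other tumors (0.42, adjusted p = 0.0238).

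**Figure D3:**
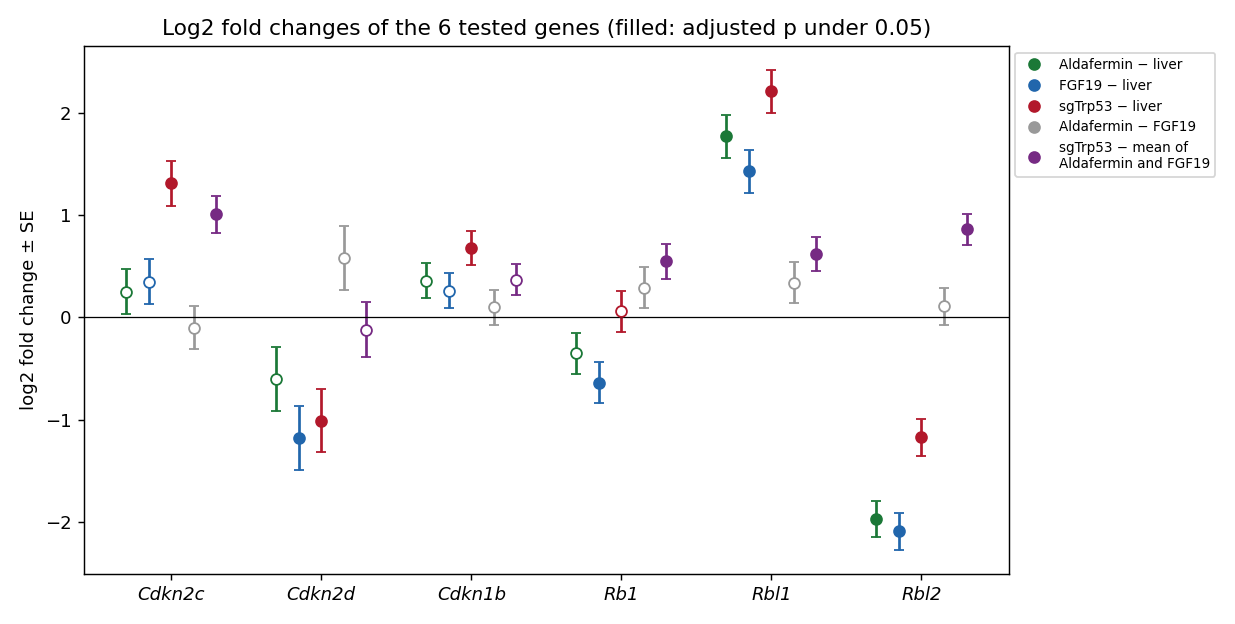
Log2 fold change with its SE for the 6 tested genes in 5 comparisons, from edgeR's quasi-likelihood model over the 4 groups. The SE was derived from the F statistic of the test. Filled points passed an adjusted p of 0.05. Rbl1 lies above 0 and Rbl2 below 0 in all 3 comparisons with livers, no gray point (Aldafermin minus FGF19) is filled, and Cdkn2c has its highest point in sgTrp53 minus liver (1.31).

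In the RB family, the genes of p130 and p107 changed against livers in opposite directions. Rbl2, the gene of p130, which is known as the RB family member of resting cells, had 70.1, 81.5, 85.7, 57 and 67 CPM in livers. It had 17.2, 19.3, 15.9, 19.2 and 20.7 CPM in Aldafermin + MYC tumors, 19.3, 15.3, 16.9, 17.7 and 16 CPM in FGF19 + MYC tumors, and 19.6, 27.5, 40.9, 43.3 and 29.3 CPM in sgTrp53 + MYC tumors. No tumor reached the lowest liver. Relative to livers, Rbl2 fell by 1.97 on the log2 scale under Aldafermin + MYC (SE 0.18, adjusted p = 1.2e-08), by 2.09 under FGF19 + MYC (SE 0.18, adjusted p = 5.5e-09) and by 1.17 under sgTrp53 + MYC (SE 0.18, adjusted p = 8.2e-06). The sgTrp53 + MYC value was -0.27 (adjusted p = 0.217) with libraries scaled by their totals alone. It was higher in sgTrp53 + MYC tumors than in the other tumors by 0.86 (SE 0.15, adjusted p = 0.00047), with 4 of 5 libraries above all 10 others. Rbl2 shares 278 exonic bases, 5.62% of its transcript, with Aktip on the opposite strand. Reads there could fall on both genes and be counted for neither if strand was not used in counting. Aktip had 8.8 to 19.8 CPM over all libraries.

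Rbl1, the gene of p107 and itself a known E2F target, rose in all tumors. It had 2.15, 2.24, 3.14, 2.32 and 3.03 CPM in livers, against 7.04, 6.7, 8.78, 8.88 and 12.5 CPM in Aldafermin + MYC tumors, 8.32, 6.63, 6.37, 7.25 and 6.15 CPM in FGF19 + MYC tumors, and 12.5, 13.1, 14.7, 11.1 and 8.5 CPM in sgTrp53 + MYC tumors. All tumors were above all livers. The rises were 3.4-fold (log2 1.77, SE 0.21, adjusted p = 3.4e-07), 2.69-fold (log2 1.43, SE 0.21, adjusted p = 5e-06) and 4.63-fold (log2 2.21, SE 0.21, adjusted p = 1.7e-08), and they held in all 31 alternatives. sgTrp53 + MYC tumors were higher than the other tumors by 0.62 (SE 0.17, adjusted p = 0.0121), with 2 of 5 libraries above all 10 others. That call was lost with offsets for GC content and transcript length (0.38, adjusted p = 0.0922).

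Rb1, the retinoblastoma gene itself, had smaller differences from livers than Rbl1 and Rbl2 in each tumor group. Livers had 9.32, 12.1, 9.9, 8.47 and 10.8 CPM, Aldafermin + MYC tumors 5.76, 8.98, 7.36, 9.96 and 7.72 CPM, FGF19 + MYC tumors 4.8, 5.57, 7.72, 7.45 and 6.96 CPM, and sgTrp53 + MYC tumors 7.3, 8.91, 14.2, 10.5 and 12 CPM. FGF19 + MYC tumors lay below all livers, and the other tumor groups overlapped them. The FGF19 + MYC value fell by 0.64 on the log2 scale (SE 0.20, adjusted p = 0.00905), but it was 0.22 (adjusted p = 0.408) with libraries scaled by their totals alone and -0.46 (adjusted p = 0.102) without the filter on low counts. Neither Aldafermin + MYC (-0.35, SE 0.20, adjusted p = 0.131) nor sgTrp53 + MYC tumors (0.06, SE 0.20, adjusted p = 0.795) passed against livers. With library totals alone the sgTrp53 + MYC value was 0.97 (adjusted p = 0.00101), and with DESeq2 the Aldafermin + MYC value was -0.44 (adjusted p = 0.0375), both past the threshold. sgTrp53 + MYC tumors were higher than the other tumors by 0.55 (SE 0.17, adjusted p = 0.024), a call lost without replicate 3 (adjusted p = 0.0955), without replicate 5 (adjusted p = 0.0669) and with the offsets for GC content and length (0.34, adjusted p = 0.0803).

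Per length, the order of the 8 genes differed between livers and tumors. In livers Rbl2 led with 14.6 ± 2.33 CPM per kb (SD, n = 5), followed by Cdkn1b at 5.12 ± 0.439 and Cdkn2c at 5.01 ± 0.851, which did not differ beyond their spread. Cdkn2d (3.05 ± 0.735) and Rb1 (2.02 ± 0.278) came next, then Rbl1 (0.525 ± 0.0955), Cdkn2a (0.191 ± 0.178) and Cdkn2b (0.151 ± 0.0603), the last a pair within their spread. In Aldafermin + MYC tumors Cdkn1b (6.55 ± 2.35) and Cdkn2c (5.96 ± 2.23) were the highest and within their spread, ahead of Rbl2 (3.73 ± 0.383), and in FGF19 + MYC tumors Cdkn2c (6.39 ± 0.66) and Cdkn1b (6.13 ± 0.776) again stood ahead of Rbl2 (3.44 ± 0.311). In sgTrp53 + MYC tumors Cdkn2c led with 12.4 ± 1.27 CPM per kb, then Cdkn1b with 8.2 ± 1.02 and Rbl2 with 6.49 ± 2, apart from Cdkn2a, whose mean was set by replicate 2. Rbl2 was thus first in livers and below both Cdkn1b and Cdkn2c in the mean of each tumor group.

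Divided by transcript length, the RB family members can be compared with each other within a library, and such shares do not depend on how libraries were scaled. In livers Rbl2 made up 85.1% ± 1.52 (SD, n = 5) of the summed CPM per kb of the 3 genes, Rb1 11.8% ± 1.28 and Rbl1 3.09% ± 0.581. In tumors the share of Rbl2 was 52.6% ± 3.44 (Aldafermin + MYC), 55.9% ± 2.04 (FGF19 + MYC) and 57.9% ± 6.2 (sgTrp53 + MYC), and that of Rbl1 was 25% ± 4.38, 23% ± 2.12 and 22.9% ± 6.4 (SD, n = 5 each). The lowest liver had 83% Rbl2 and the highest tumor 66.8%. The share of Rb1 was 22.3% ± 3.45, 21.1% ± 4.02 and 19.2% ± 2.94 in the 3 tumor groups. The summed level was 17.2 ± 2.54 CPM per kb in livers and 11 ± 2.51 in sgTrp53 + MYC tumors, against 7.1 ± 0.891 (Aldafermin + MYC) and 6.16 ± 0.434 (FGF19 + MYC) in the other tumors (SD, n = 5 each).

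**Figure D4:**
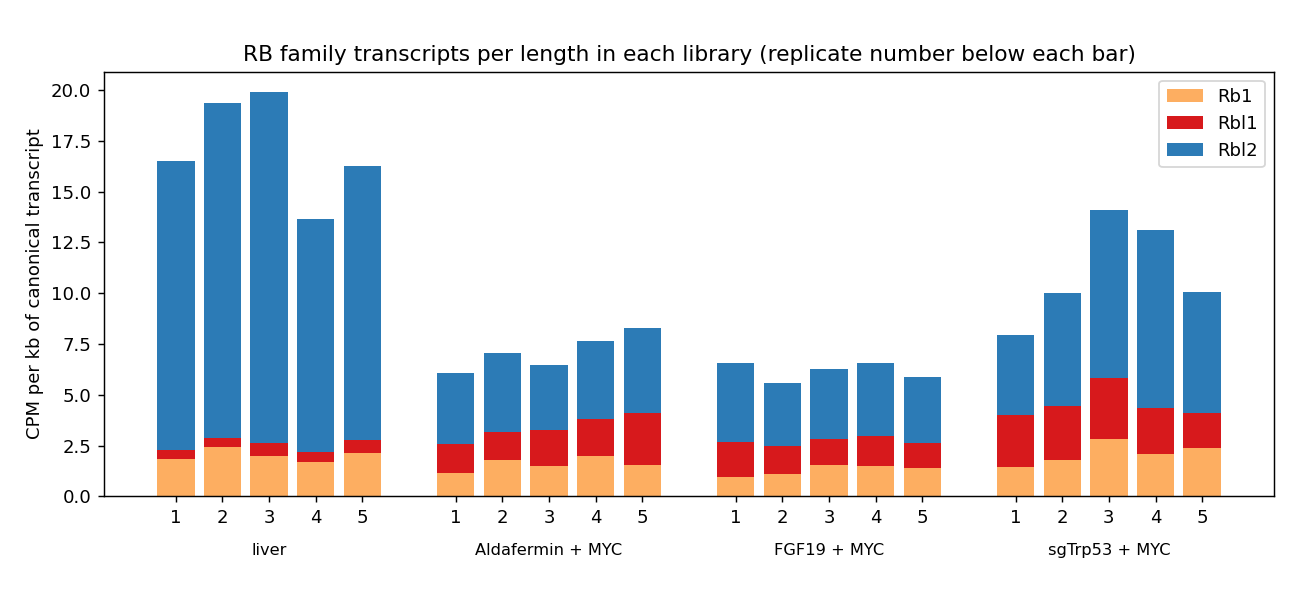
CPM per kb of canonical transcript of Rb1, Rbl1 and Rbl2, stacked for each of the 20 libraries. The blue part (Rbl2) makes up 83% or more of each liver bar and at most 66.8% of each tumor bar, and the red part (Rbl1) is at most 3.78% of a liver bar.

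Counted over the comparisons, 1 member was higher (Rbl1) and 1 lower (Rbl2) in Aldafermin + MYC tumors than in livers, where 38.4% and 31.9% of all 14333 genes tested were called higher and lower. In FGF19 + MYC tumors 1 was higher (Rbl1) and 3 lower (Cdkn2d, Rb1 and Rbl2), with 36.9% and 32.9% of all genes. In sgTrp53 + MYC tumors 3 were higher (Cdkn2c, Cdkn1b and Rbl1) and 2 lower (Cdkn2d and Rbl2), with 36.9% and 33.0% of all genes. The median log2 difference of the 6 genes was -0.05, -0.19 and 0.37 in these comparisons, and that of all genes 0.13, 0.06 and 0.07. Against the mean of the other tumors, 4 of 6 were higher in sgTrp53 + MYC tumors (Cdkn2c, Rb1, Rbl1 and Rbl2) and none lower, with 12.1% and 11.6% of all genes called higher and lower. These comparisons share livers or tumors and are not independent. Between Aldafermin + MYC and FGF19 + MYC tumors, 0 of 6 members and 0% of all genes passed edgeR's quasi-likelihood test. At an unadjusted p under 0.05 there were 0 members and 1048 genes. DESeq2 called 96 genes and no member, and edgeR's likelihood ratio test called 59 genes and no member. In the main fit, the log2 differences of the 6 members in this comparison ran from -0.10 (Cdkn2c, SE 0.21) to 0.58 (Cdkn2d, SE 0.31).

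Comparisons with livers depended on the scaling of the libraries. With library totals alone, the median log2 difference of all genes against livers was 0.97, 0.91 and 0.95 in the 3 tumor groups in place of values near 0, and 8618, 8375 and 8534 genes were called higher against 2405, 2453 and 2423 lower, compared with 5506, 5282 and 5286 higher and 4577, 4709 and 4733 lower under TMM. Values for members are therefore relative to the bulk of genes. Rbl1 in all tumor groups and Cdkn2c and Cdkn1b in sgTrp53 + MYC tumors (all higher) kept their call under either scaling. So did Rbl2 in Aldafermin + MYC and FGF19 + MYC tumors (lower).

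The genes around these members in the pathway were read from 9 lists. Among the CDK inhibitors outside the 8 genes, Cdkn1a (p21, a p53 target), Cdkn1c (p57) and Cdkn3 were higher than in livers in all 3 tumor groups, with list medians of 4.43, 4.03 and 3.65. Cdkn1a had 142 ± 24.2 CPM in FGF19 + MYC tumors, 91.1 ± 33.9 in Aldafermin + MYC tumors, 23.2 ± 5.7 in sgTrp53 + MYC tumors and 6.04 ± 6.25 in livers (SD, n = 5 each). It was 4.9-fold lower in sgTrp53 + MYC tumors than in the others (log2 -2.29, SE 0.44, adjusted p = 0.00108), opposite in sign to Cdkn2c. Per length, Cdkn1a had 73.9 CPM per kb in FGF19 + MYC tumors, where Cdkn2c had 6.39 and Cdkn1b 6.13.

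Of the D cyclins and their kinases, the partners that INK4 proteins act on, 2 or 3 of 5 were higher in each tumor group than in livers and 1 was lower. Of all genes tested, 38.4%, 36.9% and 36.9% were higher in these groups and 31.9%, 32.9% and 33.0% lower. Cdk4 rose from 50.6 ± 5.53 CPM in livers to 478 ± 98.8, 405 ± 53.9 and 398 ± 60.3 CPM (log2 3.24, 3.00 and 2.98), and the differences of Ccnd1, the gene of cyclin D1, were -2.35, -1.93 and -2.93. Between sgTrp53 + MYC and the other tumors 1 of 5 was lower (Ccnd3, log2 -0.80), where 11.6% of all genes were called lower. All 6 genes of the list of cyclins E and A, Cdk2 and Cdc25a were higher than in livers in each tumor group, with Ccna2 at 1.71 ± 1.64 CPM in livers and 213, 201 and 237 CPM in tumors. Between tumors 2 of 6 were lower in sgTrp53 + MYC. Ccne1, the gene of cyclin E1, was lower in sgTrp53 + MYC than in the other tumors (23.7 against 92.9 CPM, log2 -1.96, SE 0.28, adjusted p = 9.9e-05).

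E2F factors and their targets, downstream of the RB family, were mostly higher than in livers. In the same comparisons 38.4%, 36.9% and 36.9% of all genes were called higher and 31.9%, 32.9% and 33.0% lower. Of 10 E2F and DP genes, 9, 9 and 10 were higher in Aldafermin + MYC, FGF19 + MYC and sgTrp53 + MYC tumors than in livers, with medians of 1.83, 1.92 and 1.91. Of 20 E2F target genes, 19, 19 and 20 were higher and none lower, with medians of 3.74, 3.73 and 3.71 beside medians of 0.13, 0.06 and 0.07 over all genes. Orc1, of the replication origin complex, rose by 7.45, 7.43 and 7.82 and Cdc6, which loads the helicase there, by 6.68, 6.86 and 6.55. Between sgTrp53 + MYC and the other tumors 3 of these 20 were higher (6 by DESeq2), among them Pola1, of the primase complex (log2 0.83), with a list median of 0.05. The 3 of 20 by edgeR were near the 12.1% of all genes called higher in that comparison, and DESeq2 called 2258 of 14333 genes higher there. Of 8 genes of the DREAM and MuvB complexes, which hold either p107 or p130 or, later in the cell cycle, B-MYB (Mybl2) and FOXM1, 5 were higher than in livers in each group, with Mybl2 up by 7.40, 7.61 and 7.59 and Foxm1 by 5.42, 5.56 and 5.53, and 2, 2 and 1 were lower.

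**Figure D5:**
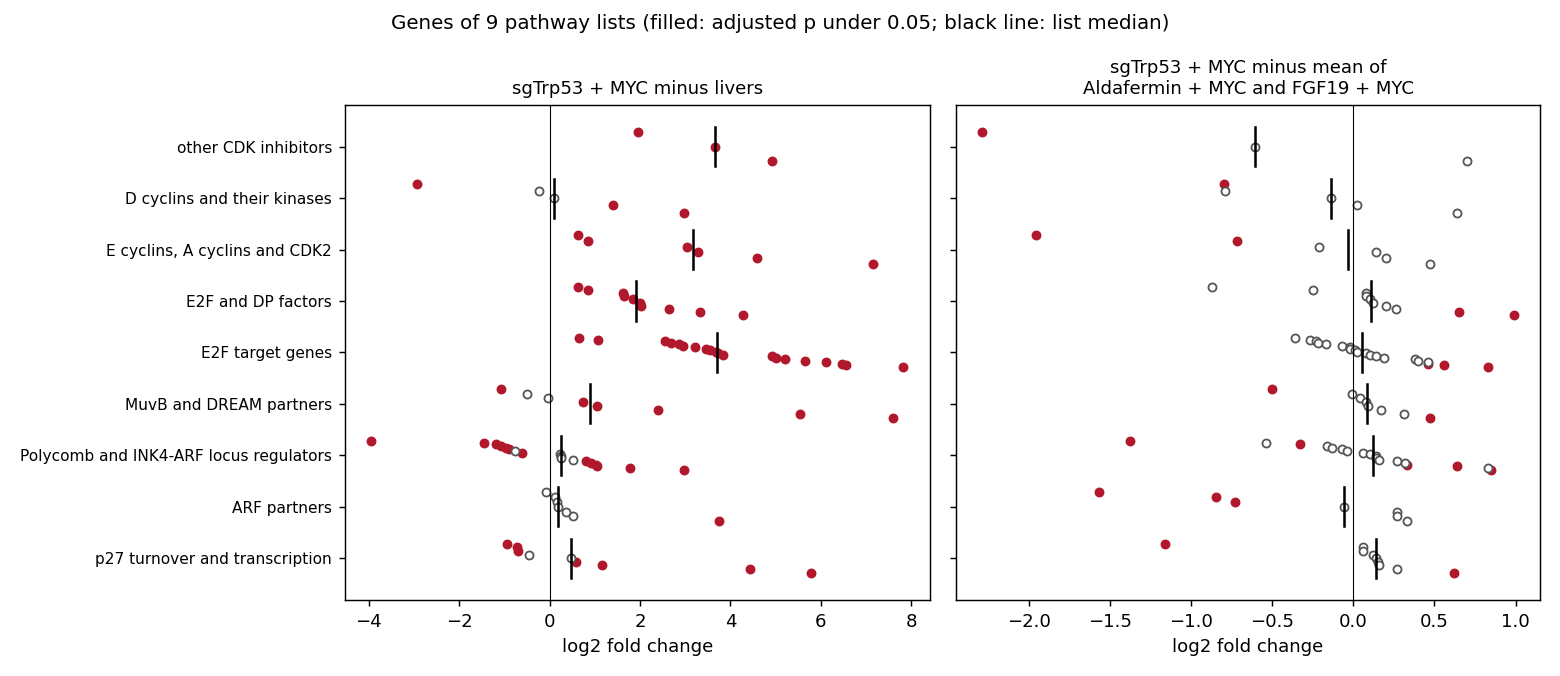
Log2 fold changes of the genes of 9 pathway lists in sgTrp53 + MYC tumors minus livers (left) and minus the mean of the other tumors (right). Filled points passed an adjusted p of 0.05 and black lines are list medians. E2F target genes lie above 0 on the left (median 3.71) and around 0 on the right (median 0.05).

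Of 18 Polycomb and other locus regulators, 6 were higher in each tumor group and 6, 5 and 7 were lower than in livers. These shares were near those of all genes tested, of which 38.4%, 36.9% and 36.9% were higher and 31.9%, 32.9% and 33.0% lower. Ezh2, the methyltransferase of Polycomb complex 2, rose by 2.97, 2.71 and 2.98, and the differences of Tbx3, a repressor of ARF, were -5.74, -3.80 and -3.94. Between sgTrp53 + MYC and the other tumors 3 of 18 were higher, among them the Polycomb gene Cbx7 (log2 0.85), and 2 lower, among them Id1 (log2 -1.38). In that comparison 12.1% of all genes were called higher and 11.6% lower. Of the 7 ARF partners, 4, 4 and 1 were higher and 1, 0 and 0 lower. Npm1, the nucleolar partner of ARF, rose by 3.44, 3.51 and 3.75 in the 3 groups. Between tumors 3 of 7 were lower in sgTrp53 + MYC, Trp53 itself being one. Mdm2, the gene of the p53 ligase that ARF binds, was lower in sgTrp53 + MYC than in the other tumors (33.9 against 63.9 CPM, log2 -0.85, SE 0.13, adjusted p = 0.00016). Against livers Mdm2 differed by 0.62 in Aldafermin + MYC, 1.46 in FGF19 + MYC and 0.19 in sgTrp53 + MYC tumors. Aldafermin + MYC minus FGF19 + MYC tumors gave -0.85 (SE 0.15, adjusted p = 0.0595 by edgeR's quasi-likelihood test). In that comparison DESeq2 called 1 of the 7 ARF partners lower and none higher. Of the 9 genes of p27 turnover and transcription, 4 were higher in each tumor group and 3, 2 and 3 lower, again near the shares of all genes. Skp2 and Cks1b, which mark p27 for degradation, rose by 5.68, 5.76 and 5.78 and by 4.33, 4.28 and 4.44. Foxo4 was lower (log2 -1.16, adjusted p = 0.00469) and Foxo1 higher (log2 0.62, adjusted p = 0.0185) in sgTrp53 + MYC than in the other tumors, both being activators of Cdkn1b.

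Over the 15 tumors, the 3 genes most like each tested member were found among 9060 genes by the correlation of log2 CPM, given as a description because the tumors share tables and depth differences. Rbl2 was most like 5730455P16Rik (r = 0.945), Fbxl20 (r = 0.928) and Afg1l (r = 0.912), and Cdkn2c most like Tbk1 (r = 0.925), Mindy2 (r = 0.923) and 4833420G17Rik (r = 0.906). Rbl1 was most like the Polycomb gene Bmi1 (r = 0.881), Zmym5 and Ccni. Cdkn1b was most like Zadh2 (r = 0.91), Acadm and Sesn1, and Rb1 most like Tbck (r = 0.901), Chdh and Acsl1. Cdkn2d had the weakest likeness, with Plac8 (r = 0.829), Dnajc30 and Tha1.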

How the data were processed

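RNA was extracted from snap-frozen tumors and livers and stranded mRNA libraries were sequenced as paired ends. The authors aligned the reads with HISAT2 to mm39 and counted them per gene with htseq-count on RefSeq genes. Per the submitters' notes, bcl2fastq 2.20.0.422 was used; the strand setting of htseq-count is not given in the sources used here. The deposited values are raw counts without normalization, in 2 tables. All sample columns were used (0 left out), and 5 summary lines were removed.

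The analysis used edgeR 4.0.16 in R 4.3.3. A filter of 1 CPM or more, met by 5 or more libraries, kept 14333 genes. Libraries were scaled by TMM, and a single quasi-likelihood model over 4 groups was tested two-sided with Benjamini-Hochberg adjustment over all genes (threshold 0.05). The SE of a log2 difference is its absolute value divided by the square root of the F statistic, as the model itself prints none. The SD of a level covers the spread among mice, and no library was a copy of another of its group (chi-square over degrees of freedom of at least 13.9). Annotation and exon lengths are from GENCODE M39 (GRCm39); 13847 of the 14333 genes had both GC content and length. Tests were checked on simulated data.

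Alternatives were DESeq2 1.42.0, edgeR's likelihood ratio test, other scalings and filters, only the compared groups, the replicate number as a block, GC and length offsets, and each library left out. A fit without filter and without sgTrp53 + MYC replicate 2 was chosen after seeing the data. The members, gene lists and tests were chosen with earlier results of these data known. Named genes are the 8 members, Cdkn1a, Cdkn1c, Trp53, up to 2 genes with the largest significant change per list and comparison, and the 3 genes most like each tested member; genes around Cdkn2a and single cell type markers were named after their values were seen. A gene that this rule names is not reported here.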

Additional observations from a re-analysis of the deposited data

Results flagged for a closer look

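A library was marked where its gap to the nearest of the others exceeded 0.71 of the range of its group of 5, which chance does in about 1 in 20 groups of normal values. Of 32 groups (8 genes in 4 groups), 6 were marked, where independent groups of normal values would give 1.6. CPM values may not be normal, and the neighbours Cdkn2a and Cdkn2b were marked in the same libraries. The 6 and the 1.6 are therefore no test of an excess over chance. In sgTrp53 + MYC replicate 2, Cdkn2a was 80.9 CPM and Cdkn2b 7.51 CPM, the highest of 5 in both. In Aldafermin + MYC replicate 3, Cdkn2a was 2.13 CPM and Cdkn2b 1.79 CPM, again the highest of 5 in both. FGF19 + MYC replicate 1 had the highest Cdkn2a of its group, 0.837 CPM from 15 counts. Aldafermin + MYC replicate 5 had the highest Cdkn1b, 48.6 CPM.

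The contrast of sgTrp53 + MYC tumors with the mean of the other tumors, given above, was also read as a difference between their changes from livers. The livers cancel in it, so this is no separate test. On the log2 scale sgTrp53 + MYC tumors were higher for 4 genes by edgeR's quasi-likelihood test: Cdkn2c by 1.01 (adjusted p = 0.00064), Rbl2 by 0.86 (adjusted p = 0.00047), Rbl1 by 0.62 (adjusted p = 0.0121) and Rb1 by 0.55 (adjusted p = 0.024). The libraries of this group are in a table of their own, so tumor type and table cannot be told apart in these differences.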

How the results depend on the processing

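Members called numbered 2, 4, 5, 0 and 4 for Aldafermin + MYC against livers, FGF19 + MYC against livers, sgTrp53 + MYC against livers, Aldafermin + MYC against FGF19 + MYC, and sgTrp53 + MYC against the other tumors. The main fit called 10083 of 14333 genes in the first comparison and 3399 in the last. The first count was 4 with DESeq2 and 4 with library totals, where 10228 and 11023 of 14333 genes were called. It was also 4 with no filter and sgTrp53 + MYC replicate 2 left out. That fit held all 8 members, and 12165 of 29348 genes were called. The last count was 2 with GC and length offsets, where 3448 of 14333 genes were called. Leaving out each library gave 2 to 3, 4 to 5, 5 to 5, 0 to 0 and 3 to 5. The replicate block gave 2, 4, 5, 0 and 4; the numbers belong to different mice and the correlations of same-numbered libraries ran from -0.333 to 0.333, so the numbers do not pair libraries. Of 930 values of tested members under alternatives, 887 kept direction and side of the threshold, 11 changed sign without passing in either fit, 21 were newly past it, 10 were no longer past it and 1 reversed: Rb1 in FGF19 + MYC tumors against livers, 0.22 with library totals. The Cdkn2a value against the other tumors went to -0.94 when sgTrp53 + MYC replicate 2 was left out with no filter. Except for that library, the causes were not tested. Between sgTrp53 + MYC and the other tumors, DESeq2 called 3 E2F and DP genes higher and 1 lower, in place of 2 higher. It called 6 E2F targets higher in place of 3. Of 14333 genes it called 2258 higher and 1881 lower, against 1736 and 1663 in the main fit. Depth limits Cdkn2a and Cdkn2b, with fewer than 100 counts in 19 of 20 libraries. The p-values of the main model rest on a spread estimated over all 20 libraries and moderated across genes, with 5 mice per group.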
